A study of Homo sapiens with 8 samples.

Results

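The middle response to hypoxia was read by comparing SJRH30 cells after 12 h in 1% oxygen with the same line before hypoxia (0 h). The members are the 2 arrays labelled 12 h and the 2 labelled 0 h, 4 of the 8 arrays of a series that also holds 6 h and 24 h. SJRH30 is an established line of human alveolar rhabdomyosarcoma, a childhood tumour with skeletal muscle features that carries the PAX3-FOXO1 fusion protein. All groups were this 1 line in the same medium with 10% serum, and the chamber is the only treatment the labels give. The labels call the 2 replicates of a time biological. Cells kept for 12 h in normal oxygen were not analysed here, and hours in culture and hours in hypoxia cannot be told apart.

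In normal oxygen, prolyl hydroxylases mark the alpha subunits of the hypoxia-inducible factors (HIF) for destruction through the VHL protein. When oxygen is low the subunits persist, pair with ARNT and bind DNA at short elements with the core ACGTG or GCGTG. Their known target genes carry glucose into the cell and through glycolysis, hold pyruvate away from mitochondria, remove mitochondria, modify collagen and signal to blood vessels. Hypoxia is also known to restrain protein synthesis and growth signalling, partly through other pathways.

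Values are log2 signals of a 3′-based Affymetrix array, with 1 probe set for each of 11963 genes, and a difference of 1 is a 2-fold change. They are relative within an array, and in RNA from whole cultures fewer cells of a type and less RNA per cell cannot be told apart. A gene was called higher or lower, and is said to have risen or fallen, at a limma adjusted p under 0.05 over all genes. The median absolute difference between replicates was 0.06 at 0 h and 0.07 at 12 h. The middle 50% of genes spanned 3.83 and 3.77 on the 12 h arrays, against 3.91 to 3.97 on the other 6. The 24 probe sets of poly-A control RNA averaged 8.32 and 8.36 at 0 h and 8.76 on both 12 h arrays, and the GAPDH control sets changed by 0.23 at the 3′ and 0.18 at the 5′ end. The 28S ribosomal RNA control set read 12.22 and 12.17 at 0 h and 11.22 and 11.28 at 12 h (-0.95), and the ACTB control sets changed by -0.37 at the 3′ and -0.44 at the 5′ end. The part of these controls in the results was not tested. Calls were also made under 4 further scalings of the arrays, which together with the deposited values make the 5 scalings referred to below.

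The labels describe the cells as muscle fibroblasts, and markers of the muscle tumour were bright. The master muscle regulator MYOD1 read 12.08 and 12.09 at 0 h and 11.91 and 11.96 at 12 h, and the acetylcholine receptor subunit gene CHRNA1 read 11.53 and 11.55, then 11.55 and 11.49. FGFR4, a receptor kinase gene driven by the fusion protein, read 11.45 and 11.38, then 11.47 and 11.50. None of these 3 was called. Of the 10 markers of this kind 2 rose, PIPOX (0.63) and MYCN (0.26), with 1 called without either 0 h array, either 6 h array or 12 h replicate 2. Of 10 fibroblast markers 1 rose, the collagen gene COL3A1 (10.69 and 10.66, then 10.93 and 10.87), a call lost when any array of 0 h, 6 h or 12 h was left out. DCN, a defining fibroblast proteoglycan, stayed between 5.21 and 5.32 on the 4 arrays. The endothelial markers averaged 5.19 to 5.38 on the 4 arrays, the leukocyte markers 4.58 to 4.67 and the epithelial markers 5.02 to 5.29, against array medians of 7.22 to 7.26. The members of these 3 lists changed by at most 0.32 in either direction. Of 8 neural markers 1 rose, the enolase gene ENO2 (4.88 and 4.91, then 5.90 and 5.74; 0.93), which also serves glycolysis, and 1 fell, OLIG2 (-0.44), the latter not called without either 0 h array or 12 h replicate 2.

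At 12 h, 18.4% of all genes were called, 7.13% higher and 11.3% lower. These shares are the background for the count of called members given for any list. The 44 genes that rose at least 2-fold and the 11 that fell as far were all called under each of the 5 scalings, as were the 147 and 106 at 1.5-fold. Calls common to all 5 scalings covered 6.44% of genes higher and 5.73% lower. Separation of the 4 arrays alone was common, since both 12 h arrays lay above both 0 h arrays in 29.6% of genes and below them in 34.2%. The 15 largest rises and 15 largest falls described below were chosen only among called genes with this separation. For them it is a condition of the choice and adds no evidence. Of the called genes, 878 had another probe set, which was called in the same direction in 385 and in the opposite direction in 21. The hexokinase gene HK2 and the growth factor gene PGF were among these 21.

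**Figure D1:**
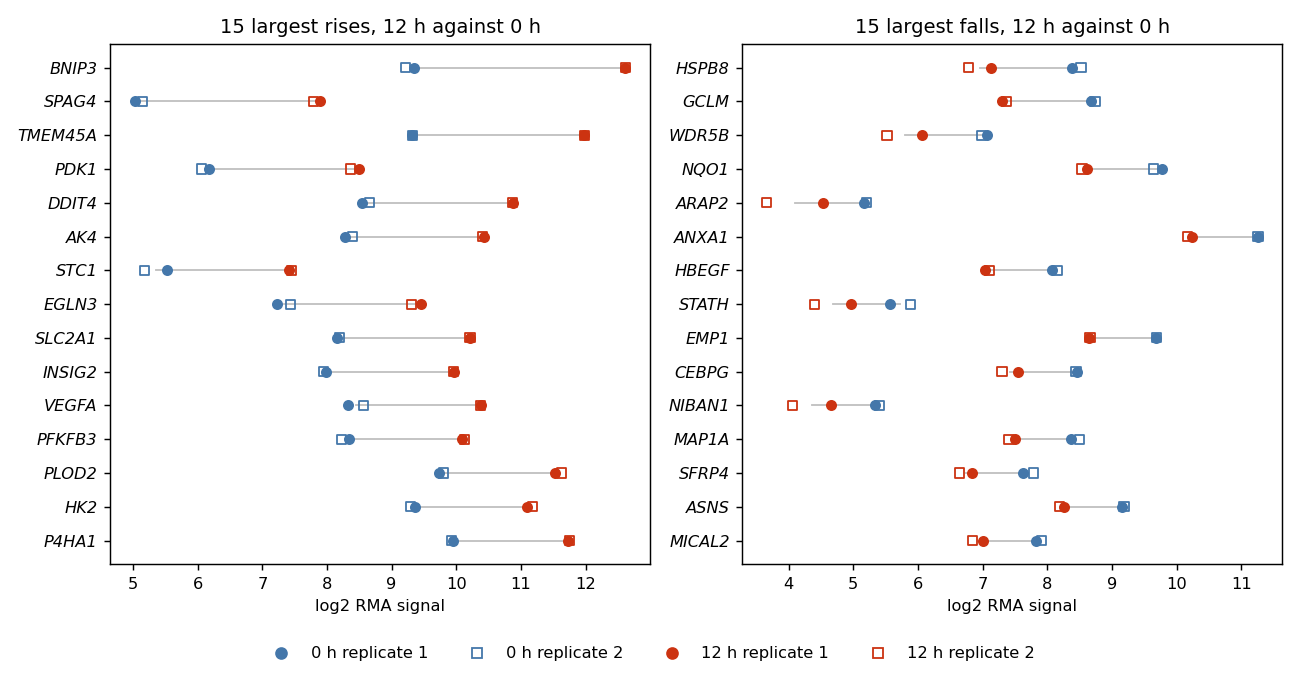
Log2 RMA signal (horizontal axis) of the 15 genes with the largest rises (left) and the 15 with the largest falls (right) among called genes, with circles for replicate 1, squares for replicate 2, blue for 0 h and red for 12 h, and grey lines joining the means. Only genes whose replicates did not overlap between 0 h and 12 h were eligible. BNIP3 moved farthest, by 3.33, and the 12 h replicates of ARAP2, at 4.53 and 3.66, lie widest apart.

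The largest rise was in BNIP3, which encodes a receptor that marks mitochondria for autophagy. It read 9.35 and 9.22 at 0 h and 12.60 and 12.62 at 12 h, a 10.0-fold rise (log2 change 3.33 ± 0.07 SE, adjusted p = 3.167e-07). Its relative BNIP3L read 10.07 and 10.08, then 11.51 and 11.63, a 2.82-fold rise. Both 12 h arrays lay far above both 0 h arrays for each receptor, and for BNIP3 separation was a condition of its choice. Of the 19 measured mitophagy and autophagy genes, only ATG9A (0.28), which supplies membrane to autophagosomes, rose beside these receptors. The autophagy cargo adaptor gene SQSTM1 (-0.52) and the protease gene ATG4A (-0.45) fell. The list's median was -0.07, against -0.04 for genes of the same brightness, and the calls of ATG9A and ATG4A were lost without either 0 h array.

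The next largest rises came from varied functions. SPAG4, which encodes a nuclear envelope protein, read 5.03 and 5.14 before hypoxia and 7.89 and 7.80 after 12 h, a 6.77-fold rise (2.76 ± 0.11, adjusted p = 7.569e-06). TMEM45A, a transmembrane protein gene, read 9.31 and 9.32, then 11.98 on both arrays (2.66 ± 0.05). DDIT4, an inhibitor of the growth kinase complex mTORC1, moved from 8.55 and 8.66 to 10.88 and 10.87 (2.27 ± 0.07). In each of these the lowest 12 h array was above the highest 0 h array by at least 2. AK4, a mitochondrial adenylate kinase gene, read 8.27 and 8.40, then 10.43 and 10.41 (2.08 ± 0.06). INSIG2, whose product retains sterol sensors in the endoplasmic reticulum, read 7.98 and 7.95, then 9.96 on both arrays (1.99 ± 0.05).

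Of the 30 measured core HIF targets, 28 rose under all 5 scalings and 0 fell, with a median change of 1.58 against -0.04 for genes of the same brightness. The exceptions were ANGPTL4 (0.22) and CITED2 (-0.16), which encodes a competitor of HIF for its coactivators. These counts are for the probe set used for each gene, and a second CITED2 probe set was called lower. With any array left out, 27 or 28 were called. The list was written with knowledge of these data, so its count is a description.

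The upstream sequence of these genes was searched for the core of the HIF element, ACGTG, on both strands of the 250 bases before the annotated start (RefSeq, GRCh38.p14), which were at hand for 9562 of the 11963 genes. The core was found in 21.7% of all promoters. It was found in 26.8% of genes called higher, in 38.2% of those higher by 1.5-fold or more (42 of 110) and in 52.9% of those higher by 2-fold or more (18 of 34). Among genes called lower the share was 21.4%, and 0 of the 10 promoters of genes lower by 2-fold or more held it. Of the core HIF targets with a promoter, 14 of 25 held ACGTG. The related core GCGTG was commoner, in 41.7% of all promoters and 50% of the group at 2-fold or more. Over all called genes its share was alike in both directions, 46.4% of those higher and 46.8% of those lower. At 1.5-fold or more it was in 48.2% of genes higher and 36.4% of genes lower (32 of 88). At 2-fold or more, 1 of the 10 promoters of lower genes held it. Over 300 bases, with 50 after the start, the shares at 1.5-fold or more were 51.8% and 46.6%. At 2-fold or more they were then 55.9% of higher genes and 4 of 10 lower ones. Windows of 100 bases are shown for 4 of the largest rises, each 5′ to 3′ on the gene's own strand, with capitals marking ACGTG or GCGTG and their reverse complements CACGT and CACGC, some of which overlap.
BNIP3, chr10:131981997-131982096, minus strand: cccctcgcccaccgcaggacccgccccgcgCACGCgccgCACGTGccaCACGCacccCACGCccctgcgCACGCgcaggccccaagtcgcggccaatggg
AK4, chr1:65147402-65147501, plus strand: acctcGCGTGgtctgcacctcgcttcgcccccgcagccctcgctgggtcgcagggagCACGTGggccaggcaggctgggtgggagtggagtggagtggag
HK2, chr2:74834024-74834123, plus strand: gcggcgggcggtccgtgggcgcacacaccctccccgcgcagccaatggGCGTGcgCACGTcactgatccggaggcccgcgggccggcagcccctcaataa
P4HA1, chr10:73096901-73097000, minus strand: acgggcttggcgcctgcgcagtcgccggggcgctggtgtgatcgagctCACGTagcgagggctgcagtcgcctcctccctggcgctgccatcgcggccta
BNIP3 held 6 matches in its 250 bases, AK4 and HK2 held 3 each and P4HA1 held 1. TMEM45A, PDK1, EGLN3 and SLC2A1 rose by 2.04 to 2.66 with neither core in this window. A match is a run of letters, not a measured binding site.

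Oxygen sensors were themselves among the rises. EGLN3 and EGLN1 encode the prolyl hydroxylases that mark HIF for destruction. EGLN3 read 7.23 and 7.44, then 9.45 and 9.31 (2.04 ± 0.09), and EGLN1 read 8.08 and 8.14, then 9.71 on both arrays (1.60 ± 0.06). Their 12 h arrays stood clear of the 0 h arrays by more than 1.5. Of the other measured genes of oxygen sensing, SIAH2, a ubiquitin ligase gene, rose by 0.31, a call lost without either 0 h array. EPAS1, which encodes HIF-2 alpha, fell from 9.89 and 9.85 to 9.44 and 9.42 (-0.44 ± 0.07, adjusted p = 0.0048), and the VHL partner gene ELOC fell by 0.31, a call lost when the arrays' spreads were made equal and without either 0 h array or 12 h replicate 1. The messages of the remaining 13 were not called with the probe sets used: HIF1A changed by -0.09 ± 0.07, its partner ARNT by 0.06, VHL by 0.14 and the asparaginyl hydroxylase gene HIF1AN by 0.03. CITED2 is among these 13, and its second probe set was called lower. HIF1A turned to 0.08 and VHL stayed above 0, at 0.06, when medians and spreads were made equal.

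**Figure D2:**
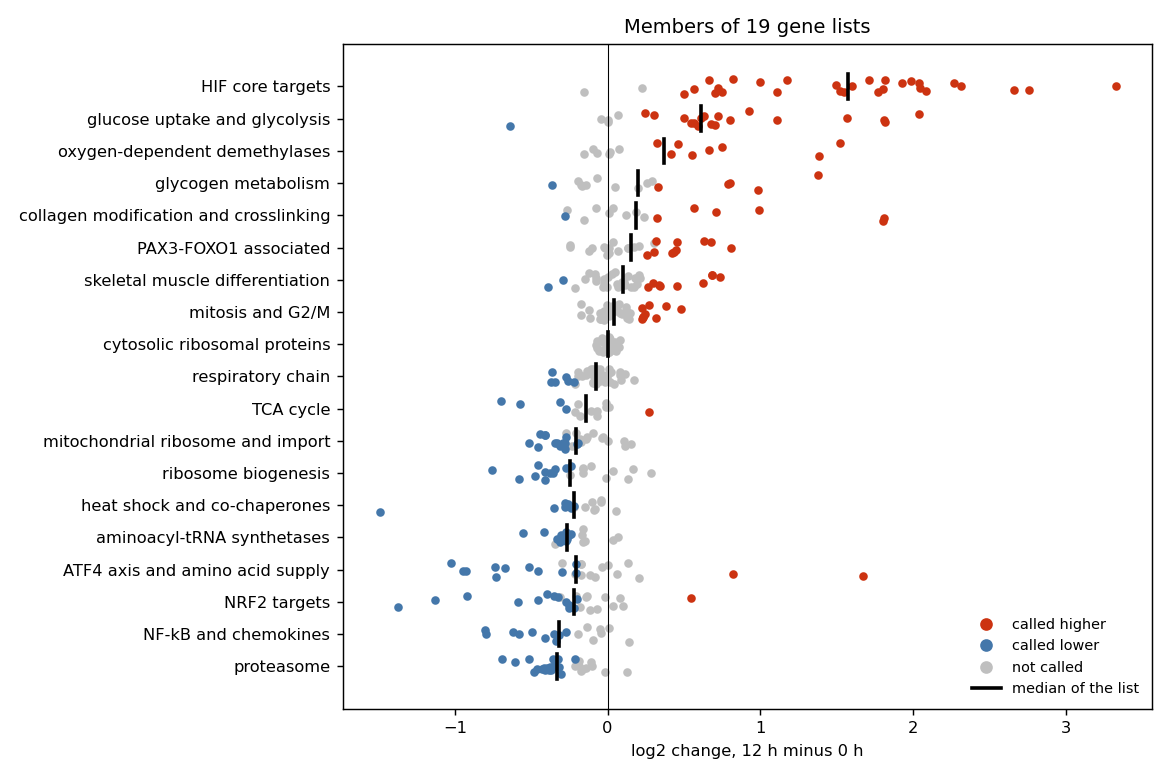
Log2 change from 0 h to 12 h (horizontal axis) of every measured member of the gene lists named on the vertical axis, with red points called higher, blue points called lower, grey points not called and a black bar at each list's median. The core HIF targets have their median at 1.58, the cytosolic ribosomal proteins at 0.00 and the proteasome at -0.33.

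Glucose entry and glycolysis genes rose in 18 of 23 cases and fell in 1 under all 5 scalings, with a median change of 0.61 against -0.02 for genes of the same brightness. The glucose transporter gene SLC2A1 read 8.16 and 8.19, then 10.21 on both arrays, a 4.10-fold rise (2.04 ± 0.05, adjusted p = 1.733e-06). A second SLC2A1 probe set was not called. The kinase genes PFKFB3, whose product makes the activator of phosphofructokinase, and HK2, which traps glucose, rose by 1.82 ± 0.07 and 1.81 ± 0.07. HK2 read 9.37 and 9.29, then 11.09 and 11.18, but a second HK2 probe set was called lower. The platelet phosphofructokinase gene PFKP moved from 8.79 and 8.83 to 10.40 and 10.36 (1.57 ± 0.08), whereas the muscle form PFKM changed by 0.00 ± 0.06 and was not called. Among the later enzymes PGK1 rose by 1.11, ENO2 by 0.93 and GAPDH by 0.24, the last a call lost without any 1 of the 0 h and 12 h arrays, and the probe set used for PKM, the pyruvate kinase gene, changed by -0.04 ± 0.09 without a call. The 1 fall was in GPD1L (-0.64), a glycerol phosphate dehydrogenase gene. PFKM, PKM and GPD1L were singled out after their values were seen.

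Of the 15 genes of pyruvate fate at the end of glycolysis 3 rose, 3 fell and 9 were not called, and the median was -0.06 against -0.03 for genes of the same brightness. PDK1, a kinase that switches off pyruvate dehydrogenase, read 6.18 and 6.06, then 8.50 and 8.37, a 4.99-fold rise (2.32 ± 0.07, adjusted p = 2.38e-06). PDK3 of the same family rose by 0.70 and the lactate dehydrogenase gene LDHA by 0.67, from 13.07 and 13.11 to 13.74 and 13.77. The 3 falls were DLAT (-0.36), a subunit of pyruvate dehydrogenase, and MPC1 (-0.31) and MPC2 (-0.23), which form the mitochondrial pyruvate carrier. DLAT alone kept its call under all 5 scalings, and none of the 3 was called without 0 h replicate 1. In the citric acid cycle 4 of 14 genes fell and 1 rose, with a median of -0.14 against -0.05 for genes of the same brightness. IDH3A, a subunit of isocitrate dehydrogenase, read 9.53 and 9.51, then 8.80 and 8.83 (-0.70 ± 0.08, adjusted p = 0.0013), and OGDH, of the oxoglutarate dehydrogenase complex, read 8.40 and 8.37, then 7.75 and 7.87 (-0.57 ± 0.06). These falls were called under all 5 scalings. CS (-0.31) and SUCLG1 (-0.27) lost their calls when spreads were equalised, and 2 falls were called without either 0 h array or 12 h replicate 1. The gene that rose was IDH2 (0.27), a call lost without any 1 array of 0 h, 6 h or 12 h.

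Glycogen genes rose in 5 of 15 cases, beside 7.13% of all genes, with a median of 0.20 against -0.03 for genes of the same brightness. PPP1R3C, which steers a phosphatase to glycogen, read 7.50 and 7.74 at 0 h and 9.01 and 8.98 at 12 h (1.38 ± 0.09, adjusted p = 0.000105). Phosphoglucomutase PGM1 (0.99), the branching enzyme gene GBE1 (0.80) and the muscle phosphorylase gene PYGM (0.79) followed. GYS1, glycogen synthase, rose by 0.33. These enzymes both build and break down glycogen. GYG1, which primes the polymer, fell by 0.37, a call lost with equalised spreads and without 0 h replicate 1.

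Collagen-modifying enzymes use oxygen to hydroxylate proline and lysine. P4HA1, a prolyl hydroxylase subunit gene, read 9.95 and 9.92, then 11.73 and 11.75, and the lysyl hydroxylase gene PLOD2 read 9.73 and 9.80, then 11.53 and 11.63. They rose by 1.80 ± 0.07 and 1.81 ± 0.08. All their 12 h arrays were above all 0 h arrays, which their choice among the largest rises required. PLOD1 (0.99), the cross-linking oxidase gene LOX (0.71) and P4HA2 (0.56) also rose, so that with LOXL2 (0.32) 6 of 15 in this list rose under all 5 scalings. The list's median was 0.18 against -0.05 for genes of the same brightness. The prolyl hydroxylase gene P3H2 fell by 0.28, but not under all 5. Of 18 secreted angiogenic factors 6 rose and 2 fell, beside 7.13% and 11.3% of all genes. Their median was 0.14 against -0.02 for genes of the same brightness. VEGFA, the main vascular growth factor gene, read 8.32 and 8.56, then 10.38 and 10.37 (1.93 ± 0.09, adjusted p = 2.388e-05), and the calcium regulator gene STC1 read 5.53 and 5.18, then 7.41 and 7.45 (2.07 ± 0.17). Their replicates did not overlap between times, which their choice among the largest rises required. Adrenomedullin ADM (1.18), STC2 (0.82) and the cytokine gene MIF (0.79) followed, with EFNA3 at 0.36. The growth factor genes FGF2 (-0.38) and PGF (-0.33) fell, 2 of 18, which is near the share of all genes called lower. PGF had a second probe set called higher and was not called under all 5 scalings. Neither fall was called without 0 h replicate 1, and 1 was called without 0 h replicate 2 or 12 h replicate 2.

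Other oxygen-using enzymes rose too. Of 14 histone and DNA demethylase genes 8 rose under all 5 scalings and 0 fell, with a median of 0.37 against -0.05 for genes of the same brightness. The histone demethylase gene KDM3A read 9.37 and 9.33, then 10.86 and 10.88 (1.52 ± 0.06), and the DNA demethylase gene TET1 read 6.76 and 6.61, then 8.02 and 8.11 (1.38 ± 0.12). KDM4B (0.75), KDM5B (0.67) and KDM4C (0.55) followed. Transcriptional repressors of the clock rose as well: BHLHE40 by 1.77 ± 0.06, from 7.53 and 7.54 to 9.32 and 9.30, BHLHE41 by 1.37 and NFIL3 by 0.81. PER2 (0.45) rose and NR1D2 (-0.63) fell. Of 14 clock genes 4 rose and 1 fell, with a median of 0.06 against -0.02 for genes of the same brightness. In the sterol list the sensor retainers INSIG2 and INSIG1 (0.61), the regulator gene SREBF1 (0.71) and the desaturase gene SCD (0.58) rose, 4 of 20 with 0 falls. The sterol median was 0.07 against -0.05 for genes of the same brightness. IGFBP5 and IGFBP2, whose products bind insulin-like growth factors, rose by 1.54 ± 0.06 and 1.11 ± 0.08, and the receptor genes INSR and IGF1R by 0.55 and 0.42, the last a call lost without 0 h replicate 2. PAPPA, a protease that frees these factors, fell by 0.54.

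The largest falls were smaller than the largest rises. HSPB8, a small heat shock protein gene, read 8.38 and 8.52 at 0 h and 7.14 and 6.78 at 12 h, 2.81-fold lower (-1.49 ± 0.11, adjusted p = 0.0002748). GCLM, the regulatory subunit of the enzyme that begins glutathione synthesis, read 8.67 and 8.74, then 7.29 and 7.37, 2.59-fold lower (-1.38 ± 0.07, adjusted p = 2.563e-05). The quinone reductase gene NQO1 read 9.77 and 9.64, then 8.62 and 8.54 (-1.13 ± 0.08). All of their 12 h arrays were at least 1 below their 0 h arrays. WDR5B, a WD-repeat protein gene, read 7.06 and 6.98, then 6.06 and 5.52 (-1.23 ± 0.17). The 12 h replicates lay apart in ARAP2 (4.53 and 3.66), STATH (4.97 and 4.40) and NIBAN1 (4.66 and 4.06). ARAP2 fell by 1.09 ± 0.23 (adjusted p = 0.0177), a call lost without either 0 h array, and STATH and NIBAN1 lost theirs without 0 h replicate 2.

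Targets of NRF2, the factor that switches on antioxidant genes, fell in 13 of 25 cases and rose in 1. Beside GCLM and NQO1, the heme oxygenase gene HMOX1 moved from 8.40 and 8.37 to 7.45 and 7.48 (-0.92 ± 0.06), and the thioredoxin reductase gene TXNRD1 from 10.00 and 9.89 to 9.30 and 9.41 (-0.59 ± 0.06). The export pump gene ABCC1 went the other way, from 9.10 and 9.16 to 9.71 and 9.65 (0.55 ± 0.06). The list's median was -0.22, against -0.03 for genes of the same brightness. The falls numbered 7 under all 5 scalings, 4 without either 0 h array, 8 and 7 without a 12 h array, and 16 without either 24 h array.

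Genes of the integrated stress response and of amino acid supply fell in 11 of 25 cases and rose in 2. The transcription factor gene ATF4 read 11.15 and 11.18, then 10.46 and 10.42 (-0.73 ± 0.06, adjusted p = 0.0004641). Its target ASNS, asparagine synthetase, read 9.15 and 9.19, then 8.25 and 8.19 (-0.95 ± 0.06), and TRIB3, a pseudokinase gene, moved from 8.47 and 8.42 to 7.55 and 7.49 (-0.92 ± 0.06). CEBPG, a partner of ATF4, fell by 1.03 ± 0.08 and ATF3 by 0.67. ATF4 itself was added after its value was seen. The 2 rises were VLDLR (1.67), a lipoprotein receptor gene, and STC2, which is also among the core HIF targets. Falls numbered 8 under all 5 scalings and 7 without either 0 h array or 12 h replicate 2. Among the aminoacyl-tRNA synthetases, which load transfer RNAs, 10 of 17 fell, with a median of -0.26. YARS1 (-0.55 ± 0.07) and GARS1 (-0.42 ± 0.06) kept their calls under all 5 scalings, and the other 8 did not, among them FARSA (-0.33) and AARS1 (-0.30). Without either 0 h array 2 were called, without either 6 h array 6 were, and without 12 h replicate 1 and 2 the counts were 3 and 5.

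Promoter windows are shown for 3 of these falls because each holds the textbook motif of its list, again from RefSeq GRCh38.p14 with the match in capitals. The antioxidant response element was searched as TGACNNNGC, the composite element of C/EBP and ATF factors as TGATGNAAN and the heat shock element as GAANNTTC, on both strands.
GCLM, chr1:93909431-93909530, minus strand: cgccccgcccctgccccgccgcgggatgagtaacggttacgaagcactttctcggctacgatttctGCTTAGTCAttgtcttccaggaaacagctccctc
ASNS, chr7:97872423-97872522, minus strand: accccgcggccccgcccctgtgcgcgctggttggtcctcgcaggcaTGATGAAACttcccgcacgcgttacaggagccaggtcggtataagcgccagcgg
HSPB8, chr12:119178797-119178896, plus strand: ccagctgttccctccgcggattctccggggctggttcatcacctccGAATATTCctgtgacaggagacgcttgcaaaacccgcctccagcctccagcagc
The matches began 34, 68 and 88 bases before the start in GCLM, ASNS and HSPB8. TGACNNNGC occurred in 6 of 19 NRF2 target promoters, in 11.9% of all promoters and in 11.2% of genes called lower. TGATGNAAN occurred in 3 of 20 promoters of the ATF4 list, 1.98% of all and 1.84% of genes called lower. GAANNTTC occurred in 4 of 14 heat shock promoters, 4.43% of all and 4.13% of genes called lower. Across all genes called lower, no one of these motifs was therefore commoner than in all promoters.

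The proteasome, which degrades tagged proteins, had a median of -0.33 against -0.04 for genes of the same brightness. Of 30 subunit and assembly genes 19 fell and 0 rose, and 29 changed below 0. PSMD3 read 9.53 and 9.49, then 8.80 and 8.85 (-0.69 ± 0.06, adjusted p = 0.0006918). PSMD11 read 11.67 and 11.66, then 11.06 and 11.07 (-0.60 ± 0.07), and the activator subunit gene PSME3 read 10.27 and 10.28, then 9.76 and 9.77 (-0.51 ± 0.06). No 12 h array reached a 0 h array in these subunits. PSMC3 (-0.48) and PSMB6 (-0.46) followed, with PSMC3 not called without either 0 h array. The falls numbered 18 under each of 3 other scalings, 9 with equalised spreads and under all 5, and 10 and 11 without 0 h replicate 1 and 2. The median was -0.19 with equalised spreads. Heat shock genes and co-chaperones fell in 8 of 17 cases, with a median of -0.22, but HSPB8 alone did so under all 5 scalings. STIP1 (-0.35), DNAJA1 (-0.28) and HSPA4 (-0.27) lost their calls with equalised spreads, and without either 0 h array 1 fall was called, without either 12 h array 3.

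Genes that build ribosomes fell in 11 of 21 cases, 9 of them under all 5 scalings, with a median of -0.24. NIP7 read 8.02 and 8.04, then 7.33 and 7.22 (-0.76 ± 0.07, adjusted p = 0.0006964), and UTP20 read 9.21 and 9.09, then 8.55 and 8.59 (-0.58 ± 0.06). Both help process ribosomal RNA. RRP12 (-0.48), the helicase gene DDX21 (-0.46) and NOP16 (-0.41) followed, although a second probe set of NOP16 was called higher. Without 0 h replicate 1 or 2, 6 and 5 falls were called, and NOP16 was not among them. Among the proteins of the finished cytosolic ribosome, 30 genes changed by -0.08 to 0.08 with a median of 0.00, which became 0.22 with 3 rises when spreads were made equal. In the MYC network, the antagonists MXI1 and MNT rose by 1.55 ± 0.06 and 0.50, and MYCN, an oncogene of the family, by 0.26, a call lost without any 1 array of 0 h or 6 h or 12 h replicate 2. The polyamine enzyme genes SRM (-0.72), ODC1 (-0.44) and SAT1 (-0.44) fell, among 6 falls and 3 rises in 17 genes.

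Of 31 genes of the mitochondrial ribosome and protein import 15 fell and 0 rose, with a median of -0.21. TIMM44, an import motor subunit gene, read 8.83 and 8.72, then 8.21 and 8.31 (-0.52 ± 0.07), and MRPL15 (-0.45), MRPS7 (-0.44), MRPL4 (-0.41) and MRPL12 (-0.41) of the mitochondrial ribosome fell as well. These 5 were the falls called under all 5 scalings, 2 falls were called without either 0 h array, 6 without 12 h replicate 2, and 3 rises appeared with equalised spreads. In the respiratory chain 6 of 43 genes fell, near the 11.3% of all genes called lower, and 0 rose. The complex I gene NDUFS1 (9.93 and 9.94, then 9.54 and 9.60; -0.37 ± 0.05) kept its call under all 5 scalings. The chain's median of -0.08 turned to 0.09, with 5 rises and 1 fall, when spreads were equalised, and 1 fall was called without either 0 h array, 3 without 12 h replicate 2.

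Among genes of EGF receptor signalling, immediate early genes and NF-kB targets, falls outnumbered rises in each list, as over all genes (11.3% lower, 7.13% higher). HBEGF, which encodes a ligand of the EGF receptor, read 8.07 and 8.16, then 7.03 and 7.10 (-1.04 ± 0.07, adjusted p = 0.0001664). EMP1, an epithelial membrane protein gene, read 9.69 on both arrays, then 8.64 and 8.66 (-1.04 ± 0.06), and the cytokine gene IL11 read 8.75 and 8.74, then 7.96 and 8.10 (-0.72 ± 0.07). These stood apart on all 4 arrays, which the choice of HBEGF and EMP1 among the largest falls required. Of 19 genes of ERK feedback and EGF receptor ligands 7 fell and 2 rose, the ligand gene TGFA (0.42) and the inhibitor gene SPRY1 (0.27), with 0 rises without either 0 h array, 4 and 3 falls without 0 h replicate 1 and 2 and 4 without 12 h replicate 2. Immediate early genes fell in 10 of 27 cases and rose in 0, with a median of -0.15 against -0.03 for genes of the same brightness. FOSL1, CCN1 and KLF4 each fell by 0.54 and EGR1 by 0.44, and the count was 4 without 0 h replicate 2 and 6 without 12 h replicate 2. FOSL1, KLF4 and EGR1 lost their calls without 0 h replicate 2. KLF4 also lost its call without 0 h replicate 1 or 12 h replicate 2. FOSL1 also lost its call without 12 h replicate 2 or either 24 h array, and with the 0 h and 12 h arrays alone.

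Targets of NF-kB, the inflammatory transcription factor, fell in 10 of 17 cases, 9 of them under all 5 scalings, with a median of -0.32 against 0.00 for genes of the same brightness. TNFRSF12A, a tumour necrosis factor receptor family gene, read 9.52 and 9.54, then 8.74 and 8.72 (-0.80 ± 0.06). The chemokine genes CXCL3 (5.88 and 5.96, then 5.17 and 5.07; -0.80 ± 0.06), CXCL2 (-0.62), CCL2 (-0.58) and CXCL8 (-0.49) fell at dim levels. Their 12 h arrays were below their 0 h arrays, whereas the median change in their brightness bins was 0.08 and 0.07. Without 0 h replicate 1 or 2, 6 and 3 falls were called, and CXCL2 was not called without replicate 2. CXCL8 kept its call only when 0 h replicate 1 was the array left out, and lost it without any other array and with the 0 h and 12 h arrays alone.

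ANXA1, an annexin that restrains inflammation, fell from 11.26 on both arrays to 10.24 and 10.17 (-1.05 ± 0.06, adjusted p = 4.673e-05). ANXA7 (-0.44) also fell, as did S100A11 (-0.48), a call lost without either 0 h array. Actin-binding genes fell in 8 of 22 cases, 5 of them under all 5 scalings, with a median of -0.17 against -0.02 for genes of the same brightness. TAGLN read 7.04 and 7.06, then 6.22 and 6.27 (-0.80 ± 0.07), the focal adhesion gene ZYX 8.75 and 8.70, then 8.05 and 8.11 (-0.65 ± 0.06), and TAGLN2, TPM4 and ACTA2 fell by 0.54, 0.51 and 0.47. MICAL2 (-0.95), an actin-oxidising enzyme gene, and MAP1A (-0.98), a microtubule-binding protein gene, were among the 15 largest falls. The TGF-beta pathway fell in 7 of 23 genes, beside 11.3% of all genes, and its median was -0.13 against -0.04 for genes of the same brightness. Its falls included ID2 (-0.66 ± 0.05), ID1 (-0.52), the inhibitor genes SMAD7 (-0.59) and BAMBI (-0.44) and the matrix gene CCN2 (-0.43). The calls of ID1, SMAD7, BAMBI and CCN2 were lost without 0 h replicate 2. That of BAMBI was also lost without 0 h replicate 1 or 12 h replicate 2, and that of SMAD7 with the 0 h and 12 h arrays alone. Actin-binding falls numbered 5 and 4 without 0 h replicate 1 and 2, and those of the TGF-beta pathway 4 and 1, with 4 without 12 h replicate 2.

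Genes that restrain the cell cycle were called in both directions, beside 11.3% of all genes called lower and 7.13% higher. Their median was -0.0035 against -0.03 for genes of the same brightness. PMAIP1, a pro-apoptotic gene that p53 can induce, read 9.82 and 9.80, then 8.92 and 8.87 (-0.91 ± 0.05, adjusted p = 7.945e-05), and the stress genes GADD45A (-0.54) and ZMAT3 (-0.53) fell. CCNG2 (0.72), a cyclin that slows division, and the antiproliferative gene BTG1 (0.54) rose. In all 9 of 21 brakes and p53 targets fell and 3 rose, with 4 and 3 falls without 0 h replicate 1 and 2, ZMAT3 being lost without either. Mitosis genes rose in 9 of 37 cases and fell in 0, with a median of 0.04 against -0.05 for genes of the same brightness. HMMR, a spindle protein gene, read 11.06 and 11.16, then 11.61 and 11.57 (0.48 ± 0.07), and ASPM rose by 0.32. BUB1 rose by 0.38, but its probe set with the largest variance read -0.04. Without either 0 h array 1 mitosis gene was called, and without 12 h replicate 1 or 2, 3 and 2. Replication genes were called lower in 5 of 39 cases, near the 11.3% of all genes, and higher in 1, TK1 (0.20), and their median of -0.06 lay beside -0.05 for genes of the same brightness. Of these falls GINS3 (-0.43) was called under all 5 scalings. Without any 1 array of 0 h, 6 h or 12 h, 0 to 2 of these falls were called. Of 18 DNA repair genes 3 rose and 1 fell, with a median of 0.08 against -0.05 for genes of the same brightness. XRCC2 read 7.38 and 7.41, then 8.03 on both arrays (0.64 ± 0.05), and FANCI (0.36) and BARD1 (0.25) also rose. NBN, of the complex that senses DNA breaks, fell by 0.36 (9.62 and 9.61, then 9.24 and 9.28), with its 3 other probe sets called lower too. The NBN call was lost without either 0 h array and with equalised spreads, and BARD1 was not called without any 1 of the 4 arrays.

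Muscle and tumour identity genes were called mostly upward. In a list of 26 genes linked to PAX3-FOXO1, 10 rose and 0 fell, beside 7.13% and 11.3% of all genes. The list's median was 0.16 against -0.04 for genes of the same brightness. The receptor kinase gene ALK read 9.83 and 9.75, then 10.63 and 10.58 (0.81 ± 0.06, adjusted p = 0.0003102), and PDGFRA read 7.59 and 7.65, then 8.29 and 8.31 (0.68 ± 0.07). PIPOX, a peroxisomal oxidase gene, moved from 9.60 and 9.55 to 10.24 and 10.17 (0.63 ± 0.06). NELL1 (0.46) and JARID2 (0.45) followed, and 6 rises were called without 0 h replicate 2. Of 36 genes of muscle differentiation 9 rose and 2 fell, the contractile genes MYL1 (-0.39) and ACTA1 (-0.29). That list's median was 0.10 against -0.01 for genes of the same brightness. Its share of falls was below the 11.3% of all genes. Myoglobin MB, an oxygen-storing protein gene, read 7.79 and 7.81, then 8.52 and 8.56 (0.74 ± 0.08), and the troponin genes TNNI2 and TNNC1 rose by 0.68 each and TNNI1 by 0.45. NEB (0.63), a thin filament gene, rose too. The muscle rises numbered 4 without either 0 h array, and TNNI1 was then not called. The muscle falls numbered 0 without 0 h replicate 1 and 1 without 0 h replicate 2.

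The median change varied with brightness. In 10 bins of equal size from dim to bright, the median change was 0.05 in the dimmest, 0.08 in the next, -0.08 in the seventh and -0.03 in the brightest. Both 12 h arrays shifted this way, by up to 0.08 in either direction, whereas the medians of the 6 h and 24 h arrays stayed between -0.05 and 0.01. In the dimmest bin 26 genes were called higher and 7 lower, and in the eighth 124 and 247. The balance of all calls differed between scalings: 61.3% were falls in the deposited values (853 higher, 1349 lower), 54.1% after further quantile normalization (931, 1096), 51.5% with arrays centred on their medians (1020, 1083), 48.2% after cyclic loess (1000, 932) and 41.1% with medians and interquartile ranges made equal (1143, 796). In the 5 brighter bins the share of falls went from 64.2% to 34.9% between the deposited values and equalised spreads. The median change of all genes lay between -0.003 and 0.032 under the 5 scalings.

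**Figure D3:**
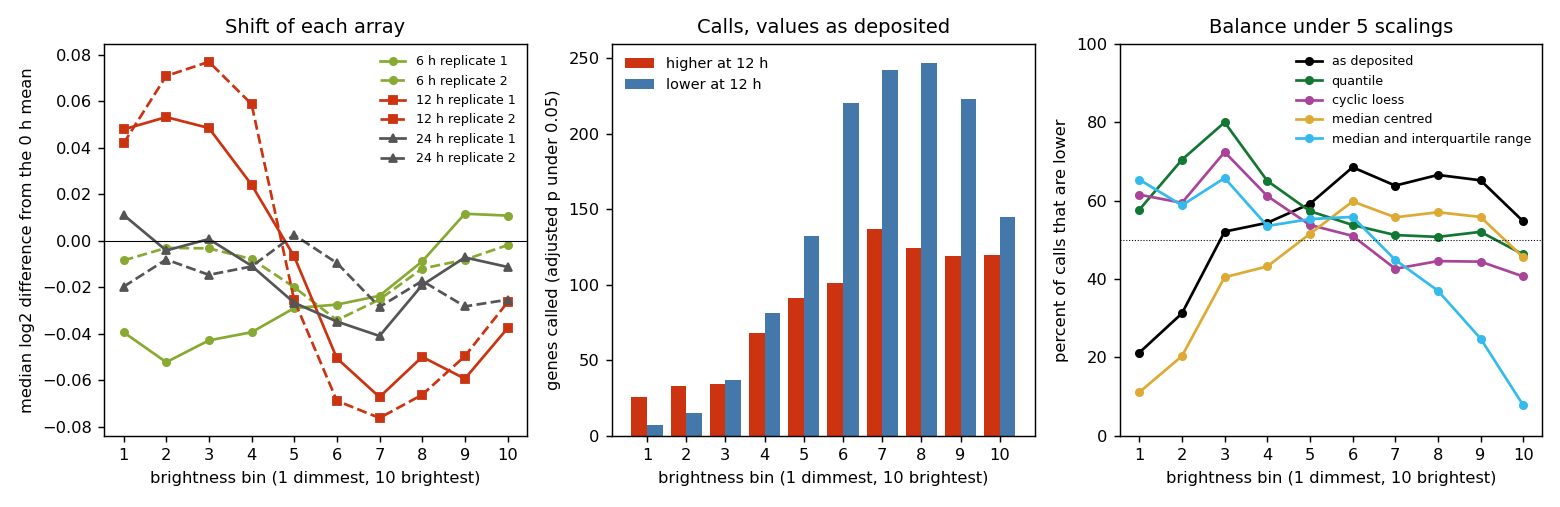
Brightness bins of the 11963 genes, from dimmest to brightest (horizontal axes), plotted against the median log2 difference of each array from the 0 h mean (left), the number of genes called higher (red) and lower (blue) with the values as deposited (middle), and the percent of calls that were falls under each of 5 scalings (right; dotted line at 50%). The 12 h arrays lie above 0 in the dim bins and below 0 in the bright ones, and the calls as deposited hold 124 rises and 247 falls in the eighth bin.

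Single genes at both ends were picked by direction, as the brightest falls and the dimmest rises, so they cannot show this dependence. The brightest genes called lower were the actin gene ACTB (13.63 and 13.67, then 13.27 and 13.31; -0.36), the chaperone gene HSP90AB1 (-0.28) and ZC3H15 (-0.23). With equalised spreads they changed by -0.15, -0.09 and -0.05 and lost their calls. The dimmest called higher were KLRC4 (3.05 and 3.07, then 3.29 and 3.31; 0.24), SORCS3 (0.22) and TNFRSF17 (0.23), and these calls were not kept under all 5 scalings either.

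The comparisons with 0 h share the 0 h arrays, so the times were also set against each other directly. From 6 h to 12 h, 17 genes rose (0.142%) and 7 fell (0.0585%), and from 12 h to 24 h, 22 rose (0.184%) and 7 fell. SPAG4 read 6.73 and 6.49 at 6 h, 7.89 and 7.80 at 12 h and 8.55 and 8.80 at 24 h, a rise of 1.23 and then of 0.83 (adjusted p = 0.01663 and 0.04326). IGFBP5 likewise read 8.83 and 8.81, then 9.53 and 9.42, then 10.16 and 10.22. NQO1 fell at both steps, from 9.21 and 9.22 through 8.62 and 8.54 to 8.02 and 7.85. The replicates of successive times did not overlap in these genes. TMEM45A rose by 0.61 between 6 h and 12 h and changed by 0.07 afterwards, and GCLM fell by 0.74 and then changed by 0.07. MB, called higher at 12 h than at 0 h, changed by 0.33 from 6 h to 12 h without a call and rose by 0.82 from 12 h to 24 h.

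No gene stood off the mean of 6 h and 24 h at 12 h by limma at an adjusted p under 0.05 (0% higher and 0% lower), while 1123 higher and 1237 lower had an unadjusted p under 0.05. The smallest adjusted p was 0.0781. It was shared by EMP1, which read 9.18 and 9.28 at 6 h, 8.64 and 8.66 at 12 h and 8.89 and 8.93 at 24 h, and by RUNX1-IT1, ANKRD36B and SPDYE2, which were highest at 12 h. RUNX1-IT1, a noncoding transcript gene, read 6.69 and 6.63, then 6.94 and 6.99, then 6.36 and 6.40. This count depended on single arrays and settings: it was 317 without 12 h replicate 1, 427 without the dimmer 50% of genes and 212 when the prior variance followed intensity.

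**Figure D4:**
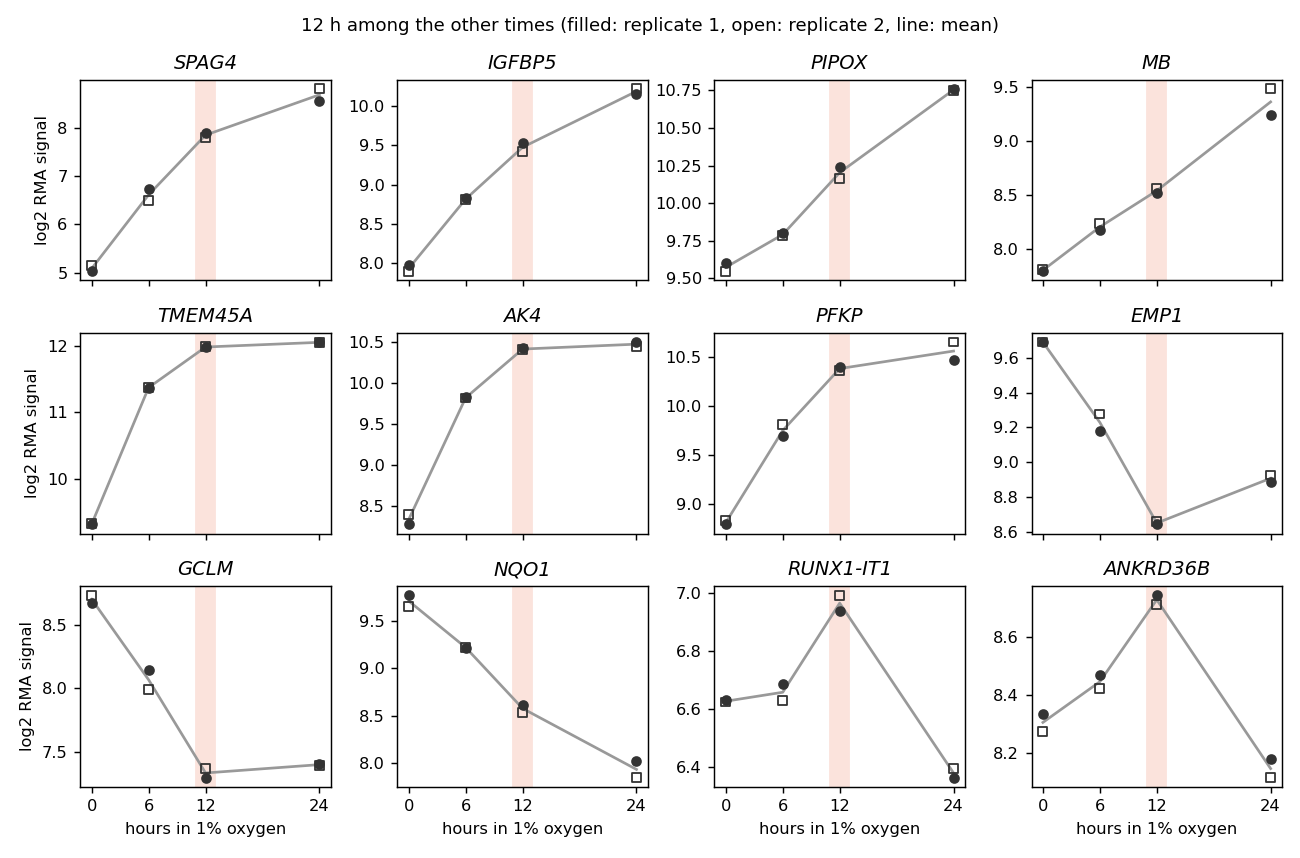
Log2 RMA signal (vertical axes) against hours in 1% oxygen (horizontal axes, 0 h being before hypoxia) for 12 genes, with filled circles for replicate 1, open squares for replicate 2, lines through the means and a band at 12 h. SPAG4, IGFBP5 and NQO1 moved at every step, TMEM45A and GCLM changed by 0.07 after 12 h, and RUNX1-IT1 and ANKRD36B were highest at 12 h.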

How the data were processed

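SJRH30 cells were sampled at 0, 6, 12 and 24 h with 2 replicates each. The values are deposited log2 probe set summaries that the authors made with RMA, per the submitters' processing notes; its version is not given in the sources used here. RMA equalises probe distributions between arrays, so differences in total RNA are removed. Of 22277 probe sets, 62 were controls and 19064 had 1 gene symbol in the platform annotation (1043 had several). The probe set with the highest mean represented each of 11963 genes, with no filter on dim ones, whose changes cross-hybridisation shrinks. The number of arrays limits the precision.

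Using limma 3.58.1 (R 4.3.3), time means were fitted over all 8 arrays (4 residual and 3.68 prior degrees of freedom), two-sided, with Benjamini-Hochberg adjustment per comparison. Alternatives were other scalings, an intensity trend, robust eBayes, filters on dim genes, only the 0 h and 12 h arrays, another probe set, a stricter threshold, a replicate block and leaving out each array. Cyclic loess, quantile and centring alternatives were computed from the deposited values. Data were simulated from the 0 h means and the residual spreads, shuffled between genes, with 200 of 11963 genes changed at 12 h in 20 simulations. In them 69.8% of changes of 0.5 on the log2 scale were called, 95.5% of changes of 1 and 99.9% of changes of 2. Of the calls 5.10% were false. The simulated arrays held no shift with brightness and far fewer changed genes than were called here, so these shares may not hold for the measured arrays.

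The members and the 49 gene lists (1036 genes, 909 measured) were chosen with earlier results of these data known. Named are the 15 largest rises and falls with separate replicates, at most 5 called members per list (2 where none was called), all of oxygen sensing, the 3 smallest p against the mean of 6 h and 24 h, and the 3 brightest falls and 3 dimmest rises. Genes added to complete small counts, and those marked, were chosen after their values were seen. Promoters are RefSeq's. The replicate numbers were not used as pairs, and the labels do not say whether they pair the samples.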

Additional observations from a re-analysis of the deposited data

Results flagged for a closer look

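The tests between hypoxic times, in the same limma model and adjusted over all genes, set apart 17 of the genes named in the comparison of 12 h with 0 h. Both tests use the 12 h arrays, so their values are not independent. No explanation was examined.

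SPAG4 rose by 1.23 from 6 h to 12 h (adjusted p = 0.01663) and by a further 0.83 from 12 h to 24 h (0.04326). IGFBP5 rose by 0.66 (0.02019) and then by 0.71 (0.025), and PIPOX by 0.41 (0.04807) and then by 0.55 (0.025). NQO1 changed by -0.64 at each step (0.03363 and 0.03445). The replicates of successive hypoxic times did not overlap in SPAG4, IGFBP5 and NQO1.

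Between 6 h and 12 h alone, TMEM45A rose by 0.61 (0.01663), AK4 by 0.60 (0.02359), the phosphofructokinase gene PFKP by 0.63 (0.03363), and the glycogen genes PGM1 and GBE1 by 0.39 (0.04807) and 0.41 (0.04747). GCLM changed by -0.74 (0.0197) and EMP1 by -0.58 (0.02021).

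Between 12 h and 24 h alone, the myoglobin gene MB rose by 0.82 (0.025), the troponin gene TNNI2 by 0.54 (0.0322) and MIF by 0.56 (0.03445). RUNX1-IT1 and ANKRD36B changed by -0.59 each (0.025) and SPDYE2 by -0.55 (0.0322). For the genes that passed at 1 step and not at the other, the difference between the steps was not tested.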

How the results depend on the processing

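Against the 853 rises and 1349 falls reported, an adjusted p under 0.01 left 354 and 448, and equal medians and interquartile ranges gave 796 falls. Leaving out each array in turn gave 319 to 959 rises and 336 to 1558 falls, with the lowest counts without 0 h replicate 2 (319 and 336) or 1 (337 and 390); a time left with a lone array is assumed to vary like the others. With the replicate number as a block, 736 rose and 1153 fell, and with the 12 h numbers crossed, an alternative chosen after seeing the data, 778 and 1208; replicate differences at 0 h and 12 h correlated at -0.11, so the numbers were not taken as pairs. Further totals were 1079 and 1912 with an intensity trend, 911 and 1798 without the dimmer 50% of genes and 672 and 1051 from the 4 arrays alone. For 12 h against the mean of 6 h and 24 h, 0 genes were called as reported, 7 with equal interquartile ranges, 212 with the trend, 6 without the dimmest 25% of genes, 427 without the dimmer 50%, and 0 to 317 with 1 array left out. BUB1 read -0.0406 with its probe set of largest variance. Of 204 named calls 171 held under the 4 other scalings, 138 under all alternatives but those leaving out an array, and 121 with each array left out. The cause of these changes was not tested.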

Other observations

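Genes outside the lists also moved at least 1.5-fold at 12 h under all 5 scalings. Those given here were picked after their values were seen, as examples with known functions. BEND5, a DNA-binding protein gene, read 6.52 on both 0 h arrays and 8.08 on both 12 h arrays (1.56 ± 0.06). PNRC1, a nuclear receptor coactivator gene, read 7.88 and 7.96, then 9.34 and 9.31 (1.40 ± 0.07), and the zinc finger gene ZNF395 read 8.63 and 8.59, then 9.84 and 9.91 (1.27 ± 0.06). PROM1, which encodes the surface protein CD133, rose by 1.30 and the integrin gene ITGB2 by 1.13. RAB20, a vesicle transport gene, rose by 1.03, PAPSS2, which makes the sulfate donor for matrix sugars, by 1.00, and the creatine transporter gene SLC6A8 by 0.85. All of their 12 h arrays were above all of their 0 h arrays.

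Among the falls, UCP2, a mitochondrial carrier gene, read 10.44 and 10.51, then 9.56 and 9.57 (-0.91 ± 0.06). TRIM16, a ubiquitin ligase family gene, read 10.66 and 10.56, then 9.77 and 9.69 (-0.88 ± 0.07), and the stress cytokine gene GDF15 read 7.62 and 7.77, then 6.92 and 6.75 (-0.86 ± 0.08). GCH1, the first enzyme of tetrahydrobiopterin synthesis, fell by 0.92, the axon guidance gene SEMA3A by 0.80 and the selenium-dependent peroxidase gene GPX3 by 0.76. The iron-binding protein gene PIR fell by 0.76 and the kinase gene PLK2 by 0.71. VCP, an ATPase that feeds proteins to the proteasome, read 10.96 and 10.85, then 10.27 and 10.33 (-0.60 ± 0.10), and the urokinase gene PLAU fell by 0.59. Replicates did not overlap between 0 h and 12 h in any of the genes of this paragraph.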
